A study of Mus musculus with 16 samples.

Results

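The transcripts described here are those of proteasome subunits and ubiquitin-conjugating enzymes in 3 pairs of mouse lymphocyte populations, each made of an innate-like and an adaptive member. Members were all probe sets annotated with a single gene symbol that begins with Psma, Psmb, Psmc, Psmd, Psme or Ube2, without the 2 genes Psmb8 and Psmb9. Each gene was read from its brightest probe set, by the mean log2 intensity over 16 arrays. This gave 61 genes, 40 with a Psm symbol and 21 with a Ube2 symbol, of 8251 genes named on the array. The rule goes by symbol, so it also took Psmc3ip, a meiotic recombination factor, and Psme3ip1, which encodes a partner of an activator, neither of which is a proteasome subunit.

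The first pair was NKT cells (CD3+CD4+NK1.1+, n = 3) and CD4 T cells (CD4T, CD3+CD4+NK1.1-, n = 3), both from the spleen of wild-type C57BL/6 mice. The second was CD8aaT cells (TCRb+CD8a+CD8b-, n = 3) and CD8abT cells (TCRb+CD8a+CD8b+, n = 3) from RTOC, a culture the labels give only by this abbreviation. The agonist Smcy selected CD8aaT cells at 10 mM and CD8abT cells at 100 nM as labelled (the first unit may be mislabelled), so dose and lineage differ together in this pair. No strain is given for the RTOC cells. The third pair was peritoneal B1 cells (IgM(hi)IgD(int)CD11b+, n = 2) and splenic B2 cells (IgM(int)IgD(hi)CD11b-, n = 2) of wild-type C57BL/6 mice, in which body site and lineage differ together. Each RNA sample came from roughly 50000 cells for RTOC and 100000 for spleen or peritoneum.

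As background, the proteasome is a barrel-shaped protease whose outer rings of alpha subunits (Psma genes) gate the entry and whose inner rings of beta subunits (Psmb genes) hold the cutting sites. A regulatory particle caps the barrel. It has a ring of ATPases (Psmc genes) that unfold proteins and non-ATPase subunits (most Psmd genes) that bind ubiquitin chains and strip them off. Ubiquitin-conjugating enzymes, or E2 enzymes (Ube2 genes), receive ubiquitin from an E1 enzyme and, with an E3 ligase, pass it to the protein to be degraded. Lymphocytes are known for an interferon-inducible form of the barrel, in which Psmb8, Psmb9 and Psmb10 replace the standard catalytic subunits and whose peptide products feed antigen presentation. The question, taken from the series title, was whether this machinery differed between innate-like and adaptive lymphocytes.

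The arrays set limits on every value below. Array medians ran from 30.4 to 76.2 and differed between pairs, so levels were compared only within a pair. Gate genes followed the sorts in part, with 6 measured. None passed the test described below in the NKT pair, where their differences ran from -0.68 to 0.27 on the log2 scale. A fit that takes in the replicate number called Cd4 lower in NKT. In CD8aaT, Cd8a and Cd8b1 were called lower, although both groups of that pair were sorted as CD8a+. Cd8b1 was 31.7 to 49.3 in CD8aaT against 1043 to 2704 in CD8abT, and Ighd was 192 and 225 in B1 against 437 and 558 in B2, while Itgam, which encodes CD11b, read 40.3 and 42.3 in B1 and 40.5 and 41.6 in B2. Summed T cell markers (11 genes) lay between 6809 and 7967 on the splenic T arrays and between 2950 and 6988 on the RTOC arrays, and summed B cell markers (11 genes) between 15960 and 18626 on the B arrays. Replicate 1 of CD4T and NKT stood apart, with a mean intensity of the 3 ribosomal 18S control probe sets of 745 and 448 against 165 to 191 on the other arrays of that pair. In populations sorted in bulk, a lower intensity from fewer cells of a type cannot be told apart from less RNA per cell.

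Promoter windows are shown for 4 genes on which the results turn, namely Psmd14 and Ube2g1, which rose in B1 cells, and Ube2e1 and Psmb3, which passed the test in a T cell pair once replicate numbers were taken into account. The windows are the 250 bases before the annotated start, from RefSeq on GRCm38.p6, 5′ to 3′ on the gene's strand. That of Psmd14 is chr2:61711444-61711693 on the plus strand, that of Ube2g1 chr11:72607011-72607260 on the plus strand, that of Ube2e1 chr14:18331845-18332094 on the minus strand and that of Psmb3 chr11:97703184-97703433 on the plus strand. Capitals mark matches on either strand to the GC box (GGGCGG), the CCAAT box (CCAAT), an ETS-type element (CCGGAAG) or the core of the antioxidant response element (TGACNNNGC). None of these letter strings contains another.
Psmd14: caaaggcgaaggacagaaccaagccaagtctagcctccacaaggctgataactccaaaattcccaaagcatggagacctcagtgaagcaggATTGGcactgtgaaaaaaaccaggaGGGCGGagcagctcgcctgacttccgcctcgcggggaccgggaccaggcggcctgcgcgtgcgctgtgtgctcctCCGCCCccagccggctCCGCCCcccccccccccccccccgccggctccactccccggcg
Ube2g1: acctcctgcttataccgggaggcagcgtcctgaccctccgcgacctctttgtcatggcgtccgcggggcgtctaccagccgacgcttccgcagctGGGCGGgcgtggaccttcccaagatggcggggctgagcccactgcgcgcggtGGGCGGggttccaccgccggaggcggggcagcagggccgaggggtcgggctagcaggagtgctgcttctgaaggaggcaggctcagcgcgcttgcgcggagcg
Ube2e1: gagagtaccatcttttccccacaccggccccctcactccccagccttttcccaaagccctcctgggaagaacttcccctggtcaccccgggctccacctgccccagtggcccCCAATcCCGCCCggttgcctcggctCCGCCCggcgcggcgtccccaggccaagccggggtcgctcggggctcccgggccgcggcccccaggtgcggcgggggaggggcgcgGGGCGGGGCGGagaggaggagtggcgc
Psmb3: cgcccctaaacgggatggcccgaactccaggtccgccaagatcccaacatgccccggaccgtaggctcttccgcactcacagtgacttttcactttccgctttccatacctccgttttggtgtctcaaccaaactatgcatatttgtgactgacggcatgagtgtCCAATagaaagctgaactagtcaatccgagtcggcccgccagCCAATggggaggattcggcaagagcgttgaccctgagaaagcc

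The windows of Psmd14, Ube2g1 and Ube2e1 held 3, 2 and 4 GC boxes and 1, 0 and 1 CCAAT boxes, and that of Psmb3 held 0 GC boxes and 2 CCAAT boxes. No ETS-type element or antioxidant core was found in these 4 windows. A RefSeq entry was found for 50 of the 61 genes, with 59 windows in all. Among these 59 windows, 62.7% held a GC box and 32.2% an ETS-type element, against 32.7% and 6.91% of all 32851 windows of the same length. The CCAAT box (32.2% against 33.8%) and the antioxidant core (10.2% and 10.2%) were about as frequent in both. Median GC content was 60.4% in the windows of the members and 52.4% in all. These are counts of letters, and the shares were not tested.

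Very few members passed the test between innate-like and adaptive cells. No member passed the test in NKT against CD4T or in CD8aaT against CD8abT, and 2 of 61 rose in B1 against B2, namely Psmd14 and Ube2g1. This fit has 1 mean per group, without the replicate number. With that number as a block, 1 member was called in the NKT pair (Psmb3) and 2 in the CD8aaT pair (Ube2d3 and Ube2e1). The blocked fit called 4.84% of all probe sets in the NKT pair and 3.2% in the CD8aaT pair. A member was called where limma's adjusted p, by Benjamini-Hochberg over all 12422 probe sets, was under 0.05. Without the block, 1.63% of all probe sets were called in the NKT pair, 0.185% in the CD8aaT pair and 1.14% in the B1 pair. No or few calls among 61 genes are near what the whole array gave. At an unadjusted p under 0.05, limma gave 1 member in the NKT pair (1.64%, against 6.21% of all probe sets), 6 in the CD8aaT pair (9.84%, against 6.03%) and 2 in the B1 pair (3.28%, against 4.78%).

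The median difference over the 61 members, on the log2 scale, was 0.093 in the NKT pair, 0.063 in the CD8aaT pair and 0.022 in the B1 pair, against -0.025, -0.051 and -0.053 over all probe sets. The members lay above 0 in 44, 34 and 34 of 61 cases. The median standard error of 1 member was 0.239 in either T cell pair and 0.292 in the B1 pair. These errors and the intervals below come from the fit without the replicate block. With the block, errors in the T cell pairs were smaller to a degree that varied by gene, as for Ube2v1 (0.13, against 0.44) and Ube2f (0.10, against 0.11). Intervals were not counted in the blocked fit. The 95% interval excluded a 2-fold change in either direction for 50 members in the NKT pair, 45 in the CD8aaT pair and 41 in the B1 pair, and for the remaining members a 2-fold change lay within the interval.

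**Figure D1:**
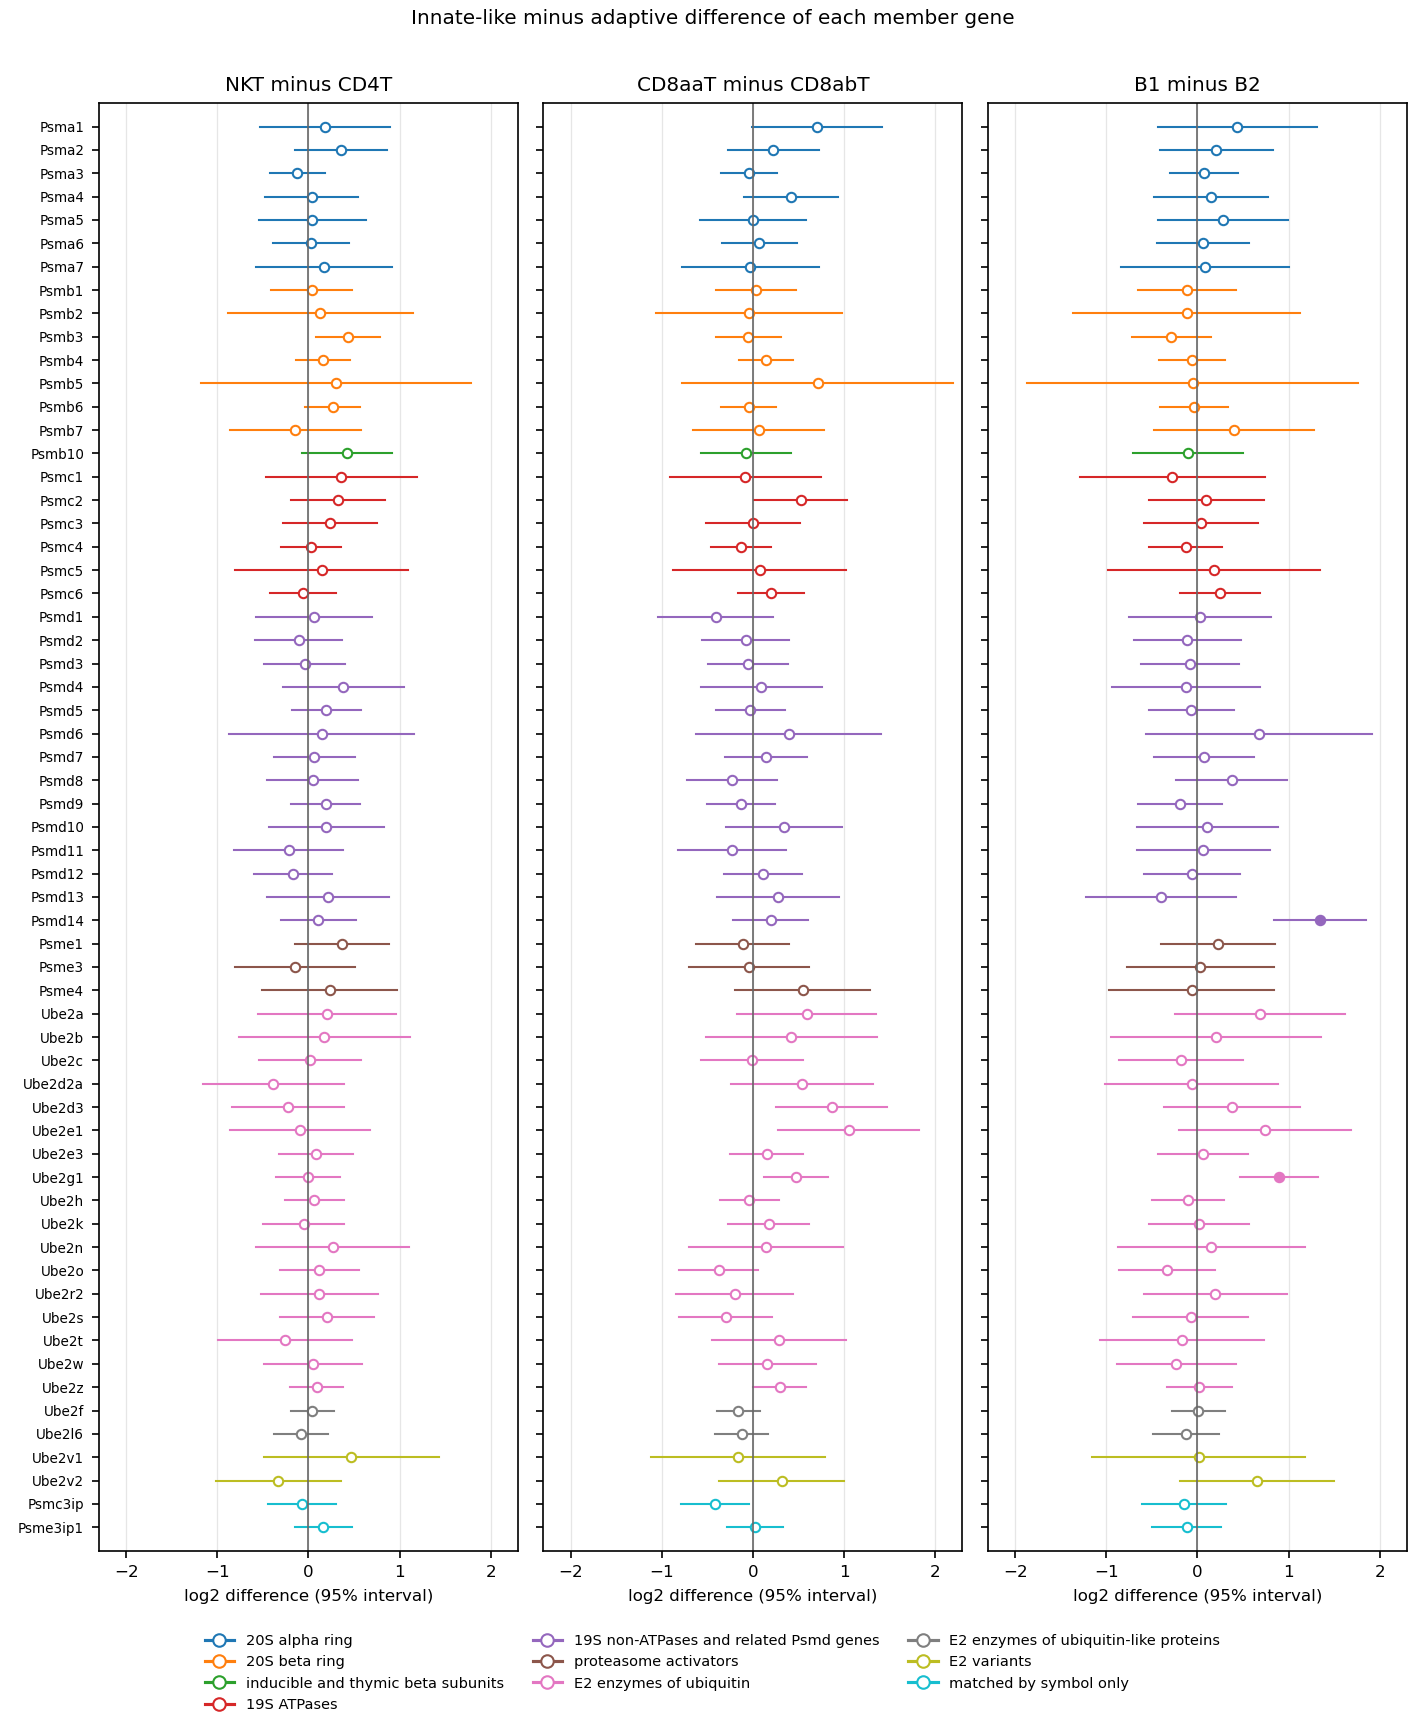
Log2 difference of innate-like minus adaptive cells for each of the 61 member genes, with its 95% interval from limma, in the NKT, CD8aaT and B1 pairs; colours give the role and filled points an adjusted p under 0.05. Most intervals cross 0, and the only filled points are Psmd14 and Ube2g1 in the B1 pair.

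The small shift of the members above the array as a whole was lost when certain single arrays were left out. Without CD4T replicate 1 the members' median in the NKT pair was 0.029, against 0.032 over all probe sets, and 34 of 61 members lay above 0. Leaving out CD8abT replicate 1 gave -0.015 in the CD8aaT pair, against -0.014 over all probe sets, with 29 of 61 above 0. Without B1 replicate 2 the B1 pair gave 0.0074, against 0.00036. Each of these fits kept the array of the same number in the other group. Without replicate 1 of every group, chosen after seeing the data, the members' median was 0.039 in the NKT pair, against -0.00025 over all probe sets. It was 0.039 against -0.049 in the CD8aaT pair and 0.14 against -0.074 in the B1 pair, where a single array of each group remained. Quantile normalization over the 16 arrays turned the sign of the CD8aaT median, to -0.023 with 29 members above 0.

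**Figure D2:**
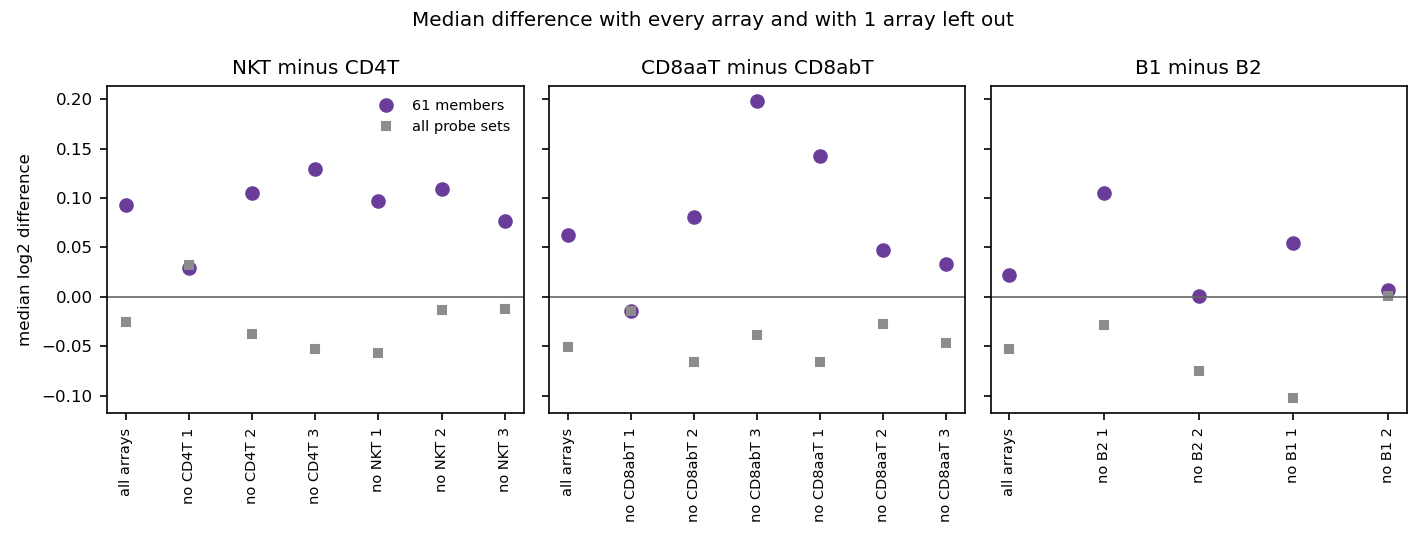
Median log2 difference over the 61 members (circles) and over 12422 probe sets (squares), with all arrays and with 1 array of the pair left out, in each of the 3 pairs. The 2 medians meet when CD4T replicate 1, CD8abT replicate 1 or B1 replicate 2 is left out.

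In NKT cells against CD4T cells, subunits of the barrel and of the ATPase ring lay mostly above 0, and none was called. Of the alpha ring 6 of 7 members lay above 0 (median 0.045), of the beta ring 6 of 7 (median 0.16), of the ATPases 5 of 6 (median 0.19) and of the Psmd genes 10 of 14 (median 0.087). The 17 ubiquitin E2 enzymes had a median of 0.065, with 11 above 0. Between the groups' intensities there was no overlap for 10 members, all higher in NKT, namely Psma2, Psmb3, Psmb4, Psmb6, Psmc1, Psmc3, Psmd4, Psmd9, Psme1 and Psme3ip1. This was 16.4% of members, against 7.19% of all probe sets higher without overlap and 5.02% lower, and the shares were not tested against each other.

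Psmb3, a beta ring subunit without a cutting site, was the member nearest to a call. It read 426, 415 and 463 in CD4T and 615, 583 and 563 in NKT. All 3 NKT arrays were above all 3 CD4T arrays, and the log2 difference was 0.44 ± 0.17 (SE; 95% interval 0.08 to 0.79, limma's adjusted p = 0.48). With the replicate number as a block it was called (adjusted p = 0.047) as the only member, in a fit that called 4.84% of all probe sets. Psmb10, the inducible counterpart of the catalytic subunit Psmb7, read 761, 500 and 506 in CD4T and 954, 733 and 670 in NKT. Its ranges overlapped only through CD4T replicate 1, and the difference was 0.43 ± 0.23 (adjusted p = 1.00). Psmd4, a receptor for ubiquitin chains, read 294, 372 and 380 in CD4T and 532, 423 and 408 in NKT without overlap (0.38 ± 0.31, adjusted p = 1.00).

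The largest value of this pair was that of Ube2v1, an inactive E2 variant that pairs with Ube2n to build ubiquitin chains used in signalling. Ube2v1 read 294, 754 and 797 in CD4T and 462, 1014 and 1008 in NKT. Replicate 1 was the lowest array of both groups, and its gap to the others exceeded the difference of 0.47 ± 0.44. That difference ran from 0.0067 to 0.85 with 1 array left out, which sets unlike replicate numbers against each other. At each replicate number Ube2v1 was higher in NKT, and with the block the difference was 0.47 ± 0.13 (limma's adjusted p = 0.077), not called. At the other end lay Ube2d2a (180, 409 and 516 in CD4T, 185, 295 and 311 in NKT, a difference of -0.39 ± 0.36) and Ube2v2 (13.0, 29.7 and 30.7, against 16.3, 18.9 and 19.3, a difference of -0.33 ± 0.32). In these 2 genes CD4T replicate 1 lay under every NKT array, while replicates 2 and 3 lay above the same numbers in NKT. Without CD4T replicate 1 the difference was -0.84 for Ube2d2a and -0.74 for Ube2v2. That fit kept NKT replicate 1, the lowest NKT array for both genes, so it does not separate the replicate from the group. With the replicate block the differences were -0.39 ± 0.16 (limma's adjusted p = 0.31) and -0.33 ± 0.24 (adjusted p = 0.64). Ube2t, an E2 of DNA crosslink repair, had a difference of -0.26 ± 0.34, and Ube2d3 one of -0.22 ± 0.28. Single arrays moved both, Ube2t from -0.43 (without CD4T replicate 2) to -0.092 (without CD4T replicate 1) and Ube2d3 from -0.62 (without CD4T replicate 1) to -0.019 (without CD4T replicate 3). None of these was called, although a fit that weighted arrays by their quality, and called 2028 probe sets in all, called 8 members, 4 of them lower in NKT (Ube2v2, Ube2d3, Ube2d2a and Psmd12) and 4 higher (Psme3ip1, Psme1, Psmb3 and Psmb10).

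Markers of another cell type moved in the same pair. Of 13 macrophage markers 3 rose in NKT, Lyz2 by 2.08 ± 0.35, Csf1r by 0.60 ± 0.13 and Mpeg1 by 1.01 ± 0.18 on the log2 scale, and the summed intensity of the list was 825 to 1020 in NKT against 567 to 801 in CD4T. Of 11 B cell markers 9 lay above 0 and Cd72 rose (1.90 ± 0.38), with summed intensities of 1361 to 2187 in NKT and 1085 to 1753 in CD4T. Their part in the values of the members was not tested.

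In CD8aaT cells against CD8abT cells, the largest differences lay among E2 enzymes, and none was called without the replicate block. Of 17 ubiquitin E2 enzymes 12 lay above 0, with a median of 0.17, while the alpha ring (4 of 7 above 0, median 0.072), the beta ring (4 of 7, 0.035) and the Psmd genes (7 of 14, 0.032) lay about evenly on both sides. Intensities did not overlap for 7 members higher in CD8aaT, namely Psma1, Psma4, Ube2a, Ube2d3, Ube2e1, Ube2g1 and Ube2z, and for 1 lower, Ube2f, an E2 of the ubiquitin-like protein Nedd8. The same was found for 5.76% of all probe sets in the upward and 5.51% in the downward direction.

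Ube2e1, an E2 with an extended amino terminus, read 41.5, 30.4 and 58.2 in CD8abT and 78.1, 63.8 and 131 in CD8aaT. The lowest CD8aaT array was above the highest CD8abT array, with CD8aaT replicate 3 the highest of all. The difference was 1.05 ± 0.36 (95% interval 0.28 to 1.82), a 2.07-fold higher level, with an adjusted p of 0.58 from limma and 0.016 with the replicate block. Ube2d3, an E2 that works with many ligases and often places the first ubiquitin, read 80.3, 97.8 and 63.9 in CD8abT and 165, 170 and 108 in CD8aaT. Again no values overlapped, and the lowest array of either group was replicate 3. Its difference was 0.86 ± 0.28 (95% interval 0.25 to 1.48), with an adjusted p of 0.56, or 0.034 with the block. The blocked fit called 3.2% of all probe sets in this pair and no further member.

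Psma1, an alpha ring subunit, read 126, 124 and 106 in CD8abT and 139, 188 and 276 in CD8aaT, a difference of 0.71 ± 0.33 (adjusted p = 0.83). Psmb5, the subunit with the chymotrypsin-like site, had the same difference with a far larger error, 0.71 ± 0.69. Its intensities of 14.4, 68.3 and 200 in CD8abT and 52.3, 90.3 and 183 in CD8aaT spread more within each group than between the groups. Leaving out single arrays moved the Psmb5 difference from -0.29 to 1.60, so it has no settled direction. The lowest differences were those of Psmc3ip (-0.42 ± 0.18), of Psmd1, a large scaffold subunit of the regulatory particle (-0.41 ± 0.30), of Ube2o, a large E2 with ligase activity of its own (-0.37 ± 0.20), and of Ube2s, which lengthens chains for the mitotic ligase APC/C (-0.30 ± 0.24). None of these was called, with adjusted p between 0.78 and 0.90. Nearest to 0 with 1 array left out were -0.20 for Psmd1 and -0.11 for Ube2s (both without CD8abT replicate 3) and -0.14 for Ube2o (without CD8aaT replicate 1). The ratio of 3′ to 5′ signal of beta-actin, a measure of RNA integrity and of the amplification, was 6.57, 11.6 and 7.92 in CD8abT and 5.80, 5.76 and 5.15 in CD8aaT, without overlap. The same ratio of Gapdh overlapped, with 24.0, 30.4 and 9.47 in CD8abT and 20.9, 17.6 and 7.37 in CD8aaT. Of 11 T cell markers 0 lay above 0 in this pair (median -0.28), where 39.2% of all probe sets did. None was called, while the block called Cd2, Cd5, Cd6 and Thy1 lower in CD8aaT. Summed T cell markers overlapped, at 2950 to 5338 in CD8aaT and 3623 to 6988 in CD8abT. Of 13 macrophage markers 11 lay below 0 (median -0.17), none called, with Lyz2 lower in the blocked fit. The part of these ratios and markers in the differences of this pair was not tested.

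In B1 cells against B2 cells, Psmd14 and Ube2g1 were the members that changed, and both rose. Psmd14 encodes the lid subunit that cuts ubiquitin chains off a protein as it enters the proteasome. It read 380 and 345 in B2 and 763 and 1104 in B1, so that both B1 arrays were above both B2 arrays. The log2 difference was 1.34 ± 0.24 (95% interval 0.84 to 1.85), a 2.54-fold higher level, with limma's adjusted p = 0.0085. The call was lost without B2 replicate 1 (adjusted p = 0.059), without B2 replicate 2 (0.12), without B1 replicate 2 (0.18) and in a fit of the 4 arrays of the pair alone (0.14), while the difference stayed between 1.08 and 1.61 with any 1 array left out.

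Ube2g1 encodes an E2 that lengthens chains on targets of cullin ligases. It read 471 and 476 in B2 and 820 and 940 in B1, with close agreement within B2 and no overlap. The difference was 0.89 ± 0.20 (95% interval 0.47 to 1.32), a 1.86-fold higher level, with an adjusted p of 0.047 that lies just under the threshold. With 1 array left out it was called in 4 of 16 fits, with adjusted p from 0.021 to 0.52, and the difference remained between 0.79 and 0.99. Every array of the pair, when left out, ended the call of Ube2g1, with an adjusted p of 0.32 without B2 replicate 1, 0.30 without B2 replicate 2, 0.11 without B1 replicate 1 and 0.52 without B1 replicate 2. So did CD4T replicate 2, CD8abT replicate 1 and each array of NKT and CD8aaT, with adjusted p from 0.054 to 0.082. The call was also lost with the 4 arrays of the pair alone (0.13), a filter at the median level (0.066), median centring (0.060), a trended robust fit (0.14) and without replicate 1 of every group (0.16).

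**Figure D3:**
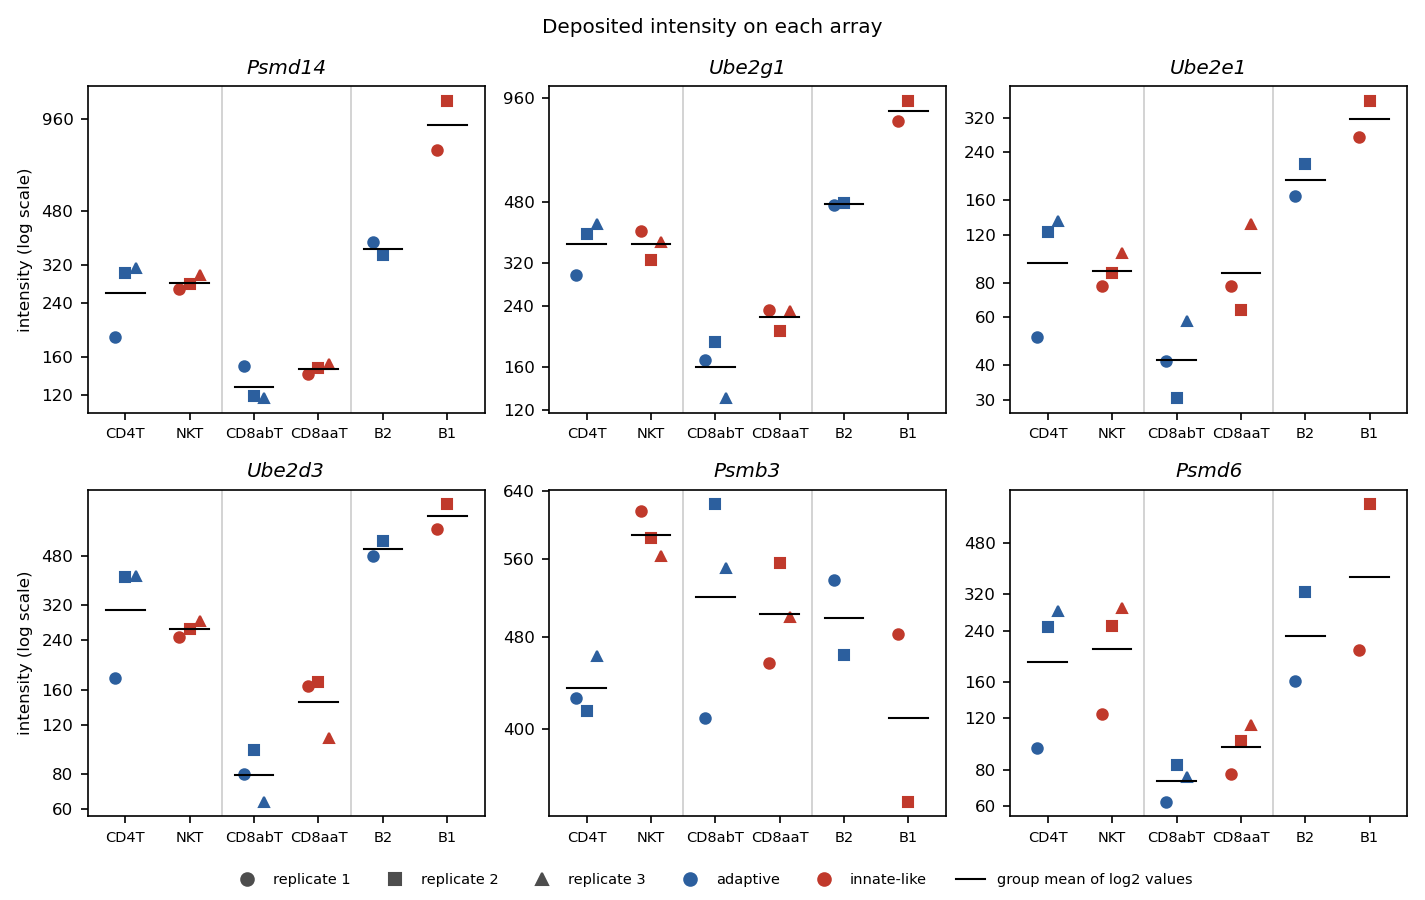
Deposited intensity (log scale) of Psmd14, Ube2g1, Ube2e1, Ube2d3, Psmb3 and Psmd6 on each of the 16 arrays, with the mean of log2 values of each group as a line; levels can be compared only within a pair, between vertical lines. The B1 arrays of Psmd14 (763 and 1104) and Ube2g1 (820 and 940) lie above both B2 arrays.

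The other members of the B1 pair were not called. Ube2e1 read 166 and 217 in B2 and 272 and 369 in B1 (0.74 ± 0.44, adjusted p = 1.00), and Ube2a, an E2 of DNA damage tolerance, read 98.3 and 111 against 108 and 263 (0.69 ± 0.43, adjusted p = 1.00). The value of Ube2a came from B1 replicate 2, without which its difference was 0.045. Lower in B1 were Psmd13, a lid subunit (105 and 127 in B2, 83.0 and 92.6 in B1, -0.40 ± 0.38), Ube2o (133 and 123, against 105 and 98.3, -0.33 ± 0.25), Psmb3 (-0.28 ± 0.20) and the ATPase Psmc1 (-0.28 ± 0.47). With 1 array left out Psmb3 ran from -0.52 (without B1 replicate 1) to -0.045 (without B1 replicate 2), and Psmc1 from -0.68 to 0.12 with the same arrays left out. Psmc1 read 333 and 201 in B2 and 282 and 162 in B1, so it was lower in B1 at both replicate numbers, while the groups' intensities overlapped. A pairing by number is only assumed in this pair. Psmd13 moved to -0.26 without B2 replicate 2. All 7 alpha ring members lay above 0 (median 0.15) and 6 of 7 beta ring members below 0 (median -0.062). Intensities did not overlap for 11 members higher in B1 and 5 lower, and with 2 arrays a group the same held for 12.2% of all probe sets upward and 20.1% downward.

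Macrophage markers moved here too, with Lyz2 (2.29 ± 0.43) and Mpeg1 (1.37 ± 0.22) higher among 13 markers and a summed intensity of 1496 to 1720 in B1 against 1037 to 1064 in B2. Of 11 B cell markers 4 fell in B1, and their summed intensity was 15960 to 16097 in B1 against 18364 to 18626 in B2. Summed T cell markers were 2707 to 3167 in B1 against 1509 to 2075 in B2, with none of 11 called. Of these 11, 9 lay below 0 (median -0.11), while the highest difference was 1.25. The replicate block called only Cd2 among them, higher in B1. Of 12 stroma and thymic epithelium markers Epcam rose in B1 (1.17 ± 0.15). The 18S control read 637 and 198 in B2 and 484 and 87.6 in B1, lowest on the B1 array with the highest Psmd14 and Ube2g1. Their part in the higher Psmd14 and Ube2g1 was not tested.

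Across the 3 pairs weighed equally, Psmd14 (0.55 ± 0.12, adjusted p = 0.033) and Ube2g1 (0.45 ± 0.10, adjusted p = 0.037) were the 2 members called, where 1.61% of all probe sets were. Psmd14 contributed 0.11 ± 0.19 in NKT, 0.19 ± 0.19 in CD8aaT and 1.34 ± 0.24 in B1, so that its average rested on the B cells. Ube2g1 contributed -0.0018 ± 0.16, 0.47 ± 0.16 and 0.89 ± 0.20, with the largest value in B1. Both calls in the average were lost without any 1 array of NKT or CD8aaT, without CD8abT replicate 3, either B2 array or B1 replicate 2. Ube2g1 was also lost without CD4T replicate 2 or B1 replicate 1, and Psmd14 without CD8abT replicate 2. With the replicate block 2 further members were called in the average, Ube2e1 (0.57, adjusted p = 0.013) and the lid subunit Psmd6 (0.40, adjusted p = 0.019), among 5.59% of all probe sets. Without the block Psmd6 gave 0.40 ± 0.29 (adjusted p = 0.82), and with 1 array left out it ran from 0.13 (without B1 replicate 2) to 0.68 (without B1 replicate 1). Psmd6 read 95.3, 247 and 282 in CD4T and 124, 250 and 288 in NKT, 162 and 327 in B2 and 207 and 652 in B1, and 62.2, 83.0 and 75.4 in CD8abT against 77.3, 100.0 and 114 in CD8aaT.

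Whether a member differed between pairs was tested directly. No member passed in NKT against the CD8aaT pair, in NKT against the B1 pair or in CD8aaT against the B1 pair, where 0.692%, 1.35% and 0.733% of all probe sets did. The smallest adjusted p was that of Psmd14 in the NKT against the B1 pair, a difference of -1.23 ± 0.30 (adjusted p = 0.076), and at an unadjusted p under 0.05 limma gave 2, 3 and 1 members. With the replicate block, Ube2d3 (-1.09, adjusted p = 0.048) and Ube2e1 (-1.14, adjusted p = 0.038) were called between the NKT and CD8aaT pairs, among 3.02% of all probe sets. Between the NKT and B1 pairs the block called Psmb3 (0.72, adjusted p = 0.038) and Psmd14 (-1.23, adjusted p = 0.020), among 4.61% of all probe sets, and between the CD8aaT and B1 pairs Psmd14 (-1.15, adjusted p = 0.047), among 2.21%. Some of these members were also called by limma without the block when CD4T replicate 1 was left out. They were Psmd14 between the NKT and B1 pairs (-1.47, adjusted p = 0.0045) and between the CD8aaT and B1 pairs (-1.15, adjusted p = 0.029), and Ube2d3 between the NKT and CD8aaT pairs (-1.49, adjusted p = 0.020). That fit kept NKT replicate 1, the lowest NKT array for both genes, so it does not separate the replicate from the group. CD4T arrays do not enter the difference between the CD8aaT and B1 pairs. Its value stayed at -1.15, and only the estimate of spread shared by all groups changed. Without B1 replicate 1 the NKT and B1 pairs also differed in Psmd14 (-1.5, adjusted p = 0.042).

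The CD8aaT and B1 pairs had 6 members in common whose intensities were higher in the innate-like cells without overlap, namely Psma1, Psma4, Ube2d3, Ube2e1, Ube2g1 and Ube2z. These were 6 of the 7 such members of the CD8aaT pair and 6 of the 11 of the B1 pair, and 1.59% of all probe sets met the same condition. This overlap was looked for after the values were seen and was not tested. In NKT, none of these 6 was without overlap, and their differences were 0.18 for Psma1, 0.035 for Psma4, -0.22 for Ube2d3, -0.090 for Ube2e1, -0.0018 for Ube2g1 and 0.093 for Ube2z.

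Some members varied more with the replicate number than with the group. Psmd1 read 339, 176 and 185 in CD4T and 358, 184 and 191 in NKT, with replicate 1 high in both groups, and Ube2v1 read 380 and 770 in B2 and 371 and 805 in B1, with replicate 1 low in both. The median SD of a member within a group, on the log2 scale, was 0.25 in CD4T, 0.18 in NKT, 0.34 in CD8abT, 0.28 in CD8aaT, 0.20 in B2 and 0.20 in B1. Over all probe sets these SDs were smaller, from 0.11 to 0.24. The lowest array of its group was most often replicate 1 in CD4T (35 of 61 members), NKT (27), CD8abT (29), CD8aaT (33) and B1 (36), and replicate 2 in B2 (39).

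**Figure D4:**
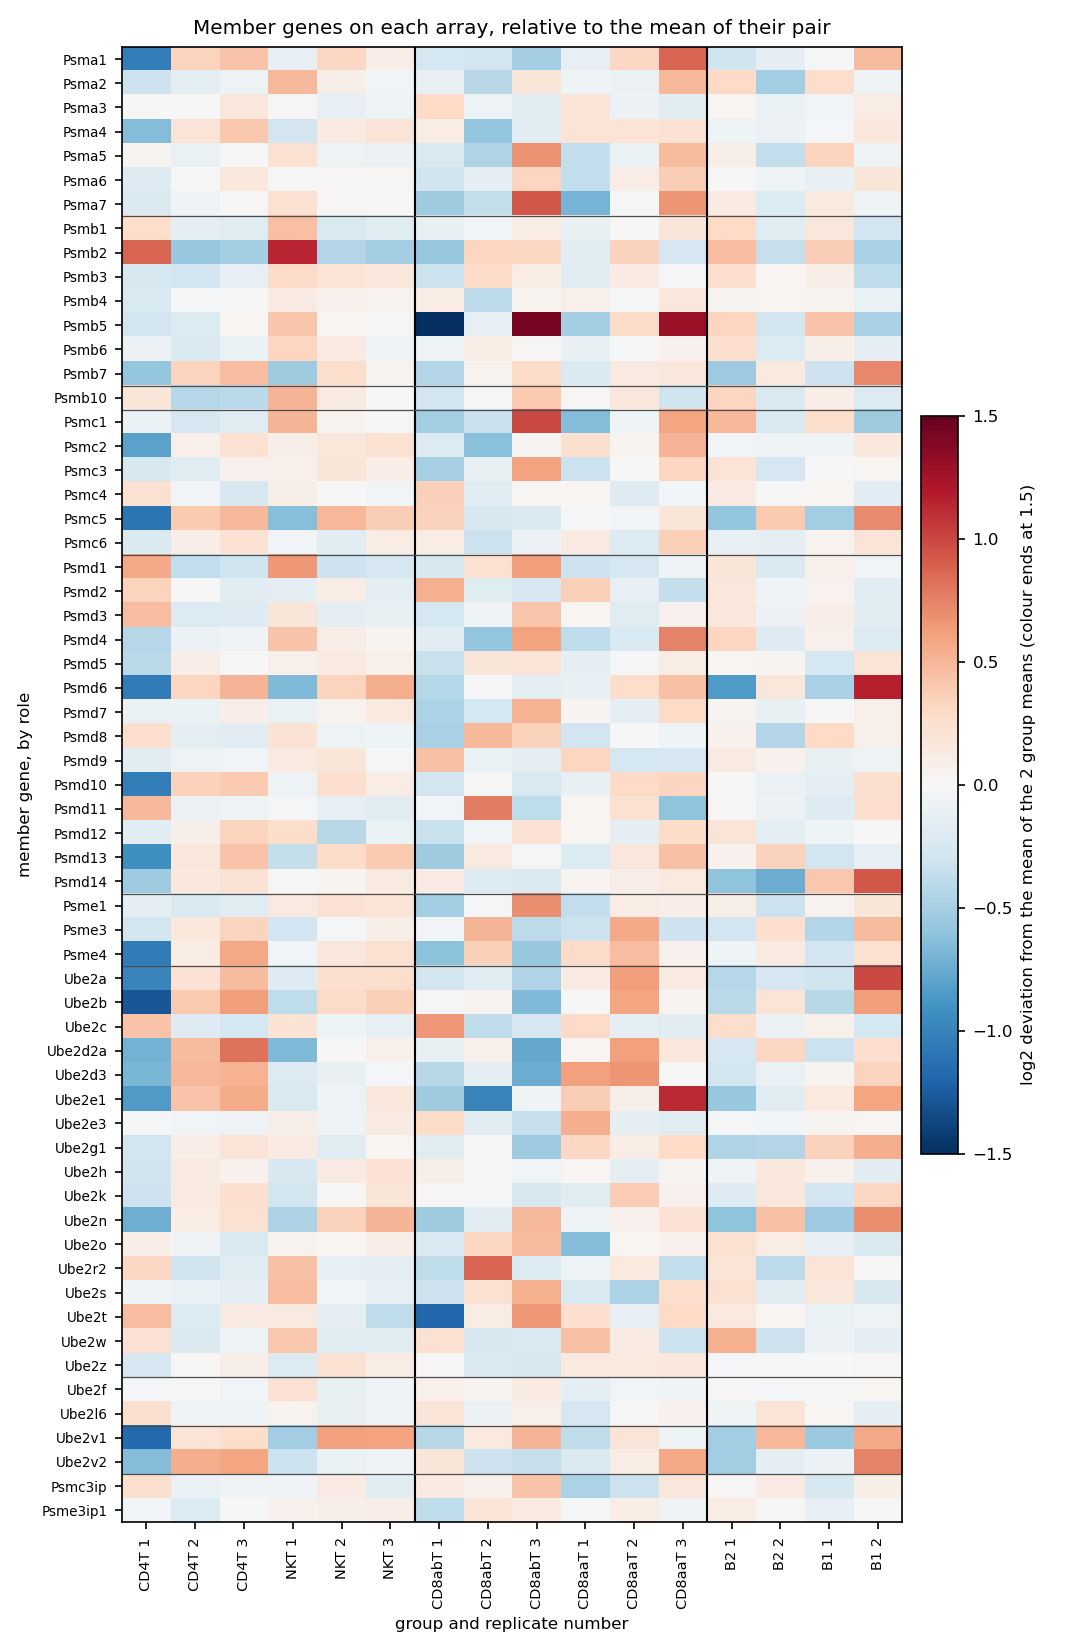
Log2 deviation of each member on each array from the mean of the 2 group means of its pair, with members in rows by role and arrays in columns by group and replicate number. Blocks of equal colour recur in the same replicate number of both groups of a pair, as for Psmd1 in replicate 1 of CD4T and NKT, and Psmd14 is raised on both B1 arrays.

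Further members are given for their roles, outside the rule for named genes and with earlier results of these data known. Psmb6 and Psmb7 carry the other standard cutting sites. Psmb6 read 171, 156 and 169 in CD4T and 226, 197 and 175 in NKT (0.27 ± 0.14, adjusted p = 1.00), without overlap, and differed by -0.046 ± 0.14 in the CD8aaT and -0.039 ± 0.17 in the B1 pair. Psmb7 differed by -0.14 ± 0.33, 0.063 ± 0.33 and 0.40 ± 0.41 in the 3 pairs. Psme1, a subunit of the interferon-inducible activator cap, read 635, 600 and 621 in CD4T and 773, 817 and 804 in NKT (0.37 ± 0.24, adjusted p = 1.00), again without overlap, and differed by -0.11 ± 0.24 and 0.23 ± 0.29 in the other pairs.

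The nuclear activator Psme3 lay near 0 in each pair, with differences of -0.14 ± 0.31, -0.046 ± 0.31 and 0.034 ± 0.38. Ube2n, the active partner of Ube2v1 and Ube2v2, read 95.4 and 197 in B2 and 99.0 and 235 in B1, again by replicate number, and its differences were 0.27 ± 0.39, 0.14 ± 0.39 and 0.15 ± 0.48. Ube2c, which starts chains for APC/C in mitosis, differed by 0.014 ± 0.26, -0.013 ± 0.26 and -0.18 ± 0.32. The E2 enzymes of ubiquitin-like proteins had small errors. Ube2f read 36.97 to 39.2 in CD8abT and 32.9 to 35.01 in CD8aaT (-0.16 ± 0.11, adjusted p = 0.90), and Ube2l6, the E2 of Isg15, differed by -0.081 ± 0.14, -0.12 ± 0.14 and -0.13 ± 0.17. None of these members was called.

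Genes that work with the members were read from lists of 51 measured genes. In the NKT pair 1 of the 51 rose and 1 fell, both E3 ligases: Nedd4 read 22.2, 22.4 and 20.6 in CD4T and 76.8, 128 and 120 in NKT (2.28 ± 0.24, adjusted p = 6.7e-05), and its relative Nedd4l read 122, 144 and 160 against 81.3, 95.04 and 90.04 (-0.67 ± 0.15, adjusted p = 0.029). The call of Nedd4l was lost without CD4T replicate 2 or 3, any array of NKT or either array of B2. No gene of these lists passed in the CD8aaT or the B1 pair, where limma gave 5 and 1 at an unadjusted p under 0.05. With the block, 5 genes passed in the NKT pair, adding Psmb8, the E1 enzyme Uba7 and the p97 cofactor Ubxn1, all higher, and 3 in the CD8aaT pair, Nfe2l2, Ubqln1 and Cul1, all higher. Of the inducible catalytic subunits, Psmb8 read 1972, 1911 and 1961 in CD4T and 2764, 2728 and 2535 in NKT, without overlap (0.46 ± 0.20, adjusted p = 0.68, or 0.020 with the block). Psmb9 had differences of 0.18 ± 0.16, 0.26 ± 0.16 and -0.17 ± 0.19 in the 3 pairs, none called. The median over the 51 genes was 0.079 in the NKT, 0.098 in the CD8aaT and -0.036 in the B1 pair. Of 17 interferon-induced genes 14, 17 and 2 lay above 0 in the NKT, CD8aaT and B1 pairs (medians 0.28, 0.52 and -0.31), with 0, 0 and 1 called, or with the block 3 (2 higher, 1 lower), 7 (all higher) and 3 (2 higher, 1 lower). Of 23 cell division genes none was called in any pair, where limma gave 0 at an unadjusted p under 0.05, while the block called Mcm4 higher in the CD8aaT pair (adjusted p = 0.036).

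Other probe sets of the members gave a further reading of the same RNA. Of the 61 members 14 had more than 1 probe set, and their 19 other probe sets had the sign of the chosen one in 12 cases in the NKT pair, 10 in the CD8aaT pair and 12 in the B1 pair, with no call. The other probe set of Ube2d3 differed by 0.48 ± 0.21 in the CD8aaT pair, against 0.86 for the chosen one. Psmd14 and Ube2g1 had only 1 probe set each. The chosen probe set of Ube2e1 is 1 of 6 among the members that the array's design marks as shared within a sequence family, so related transcripts may add to its signal. The probe sets shared by Psme2 and Psme2b carry 2 symbols and were not members.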

How the data were processed

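RNA of 16 sorted samples (CD4T, NKT, CD8abT and CD8aaT with 3 replicates each, B2 and B1 with 2 each) was extracted with TRIZOL, amplified and labelled, per the labels' protocols. The authors deposited 1 intensity per probe set and array on a linear scale. RMA was used, per the submitters' processing notes, whose version is not given in the sources used here. Nothing used here says which arrays shared a normalization. Of 12488 probe sets 66 controls were left out. RMA pulls arrays towards 1 distribution only within a normalized set, so levels were not compared between pairs.

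Log2 intensities of the remaining 12422 probe sets were fitted with limma 3.58.1 in R 4.3.3 (lmFit, eBayes, 6 group means over 16 arrays). Tests were two-sided contrasts, with Benjamini-Hochberg adjustment over all probe sets and a threshold of 0.05. Precision is limited by the few arrays per group. The samples are labelled as biological replicates without a statement of separate animals, so the p-values cover only the spread among these samples, which may be technical. Members and lists were chosen with earlier results of these data known. Named genes are the members called in any comparison, with the replicate block included, and the 4 highest and 4 lowest differences of each pair. Some further members are given for their roles. The fit was tested on simulated data.

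Replicate numbers come from the labels. Deviations from group means correlated between same numbers at 0.65 to 0.76 for NKT and CD4T and 0.60 to 0.66 for CD8aaT and CD8abT. These pairs were therefore taken as paired, but only in the blocked fit. The main fit has no replicate number, so its calls, errors and intervals in these pairs ignore the pairing. For B1 and B2, with 2 numbers, the check cannot settle a pairing. The blocked fit still gave them replicate numbers, so its average and its differences that involve B1 rest on an assumed pairing there. Replicates 2 and 3 of NKT and CD4T also correlated across numbers (0.57 and 0.67), so the check sets replicate 1 apart. Alternatives were the replicate block, the arrays of a pair alone, an offset of 32, a filter at the median level, quantile normalization, median centring, a trended robust eBayes, array weights, the mean of a gene's probe sets and each array left out. A fit without replicate 1 of every group was added after seeing the data.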

Additional observations from a re-analysis of the deposited data

Results flagged for a closer look

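With the replicate number as a block, limma's test of the difference between pairs called 5 values among the members, none of which passed in the same fit of all 16 arrays without the block. Between the NKT and CD8aaT pairs, Ube2d3 differed by -1.09 (adjusted p = 0.048, or 0.66 without the block) and Ube2e1 by -1.14 (adjusted p = 0.038, or 0.92). Between the NKT and B1 pairs, Psmb3 differed by 0.72 (adjusted p = 0.038, or 0.41) and Psmd14 by -1.23 (adjusted p = 0.020, or 0.076). Between the CD8aaT and B1 pairs, Psmd14 differed by -1.15 (adjusted p = 0.047, or 0.18). Each of these values was also called without the block under array weights. Ube2d3 and both Psmd14 values were called when CD4T replicate 1 was left out. Array weights called 2028, 89 and 241 of all probe sets in the NKT, CD8aaT and B1 pairs, against 202, 23 and 142. For the differences between pairs such numbers are not given here under either setting. The fit without CD4T replicate 1 kept NKT replicate 1, the lowest NKT array for both genes. CD4T arrays do not enter the difference between the CD8aaT and B1 pairs. The block also treats B1 and B2 arrays of the same number as paired, which was assumed.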

How the results depend on the processing

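With the replicate block, members called were 1 (NKT pair), 2 (CD8aaT pair) and 4 (average), against 0, 0 and 2, and between pairs 2 (NKT and CD8aaT), 2 (NKT and B1) and 1 (CD8aaT and B1), against 0 each; the B1 pair kept 2, and pathway genes called were 5, 3 and 1 in the NKT, CD8aaT and B1 pairs, against 2, 0 and 0. Array weights gave 8 members in the NKT pair, 3, 4 and 1 between pairs, and 13 pathway genes in the NKT pair. They called 2028 of all probe sets in the NKT pair, against 202, and such numbers between pairs are not given here. In the B1 pair, the arrays of the pair alone gave 0 members, and the filter at the median level, median centring and the trended robust fit gave 1 each. For the average, quantile normalization and median centring gave 1 and the trended robust fit 0. Between the NKT and B1 pairs the offset of 32 and quantile normalization gave 1 each, and between the CD8aaT and B1 pairs quantile normalization gave 1. Pathway genes in the NKT pair were 1 with the pair alone, the filter, median centring, the trended robust fit or the mean of a gene's probe sets. The fit without replicate 1 of every group, chosen after seeing the data, leaves 1 array each in B1 and B2, so its counts are not given here. The causes of the changed counts were not tested.

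With 1 array left out, members called ranged from 0 to 0 in either T cell pair, 0 to 2 in the B1 pair and in the average, and 0 to 1, 0 to 2 and 0 to 1 between pairs, and pathway genes in the NKT pair from 1 to 3. The members' median ranged from 0.029 to 0.129 in the NKT pair, -0.015 to 0.198 in the CD8aaT pair and 0.00085 to 0.105 in the B1 pair. The sign turned for Psmb5 in the CD8aaT pair (-0.29 without CD8abT replicate 1, 1.60 without CD8abT replicate 3) and for Psmc1 in the B1 pair (0.086 without B2 replicate 1, 0.12 without B1 replicate 2, -0.68 without B1 replicate 1), neither called. All probe sets called were 601, 398 and 353 with the block, 2028, 89 and 241 with array weights and 150, 2 and 50 with the pair alone, against 202, 23 and 142 in the NKT, CD8aaT and B1 pairs. The offset of 32 gave 9 in the CD8aaT pair and 214 in the B1 pair. Fits of a pair alone give no average and no difference between pairs. Signals near background limit 9 members, whose mean level was at or under the median of all probe sets.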
